A study of Petromyzon marinus with 6 samples.

Results

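The set described here holds 230 transcript models of the sea lamprey that were read in every TH+ library and in no TH- library. A model belongs to it if its estimated count, rounded to a whole number, was 0 in all 3 TH- libraries and at least 10 in each of the 3 TH+ libraries, and if it is under 10000 bases long. The rule was met by 230 of the 19781 models deposited, or 2.05% of the 11242 models under 10000 bases with at least 10 counts in each TH+ library. No model of 10000 bases or more met both count conditions, so the length limit removed none. The values that chose the set are the same counts that separate the groups, and the TH+ and TH- levels of its members are therefore given as a description.

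The TH+ and TH- groups had 3 libraries each. Both came from trunks of Petromyzon marinus ammocetes, the larval stage of a jawless vertebrate, out of paired tracts that the submitters took to be the sympathetic chains. The cells were dissociated, fixed in paraformaldehyde and selected with an antibody to TH. The submitters labelled the selected TH+ cells sympathetic and the TH- cells control. No genotype, drug treatment or age in days is given in the labels. The labels do not tie libraries to animals or sorts, so the spread between libraries may be technical.

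TH, tyrosine hydroxylase, catalyses the rate-limiting step from tyrosine towards dopamine and noradrenaline. In jawed vertebrates the noradrenergic neurons of the sympathetic ganglia arise from the neural crest, and TH is one of their defining enzymes. A transcript read in TH+ cells and not in their TH- neighbours is a candidate marker of the selected cells, but a count of 0 limits a level and does not show that the transcript is absent. In such sorted pools, more cells of a type and more RNA per cell cannot be told apart.

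The tables identify the models by PMZ numbers and do not pair them with gene names. Of these identifiers 0 were found among the 45433 genes of the RefSeq lamprey table (assembly UKy_Petmar_22M1.pri1.0). The members' roles, the TH transcript itself and the markers of the labelled cell types were therefore not analysed here, and neither were sequences. A pair of members is named by identifier, and the others are described by their length and by their rank in TPM (a level corrected for length and depth that sums to the same total in every library). All 230 identifiers carry the suffix RA, so no member is the second transcript of a gene.

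The 3 TH+ libraries had totals of 7525119, 6573171 and 6749189 counts, and the 3 TH- libraries had 8893703, 9221265 and 7127490. On library totals the pooled TH- libraries were thus the deeper group, since TH+ held 20847479 counts in all and TH- held 25242458. With totals scaled by TMM for library composition, TH- was instead the shallower group. The mean TMM factors were 1.85 for TH+ and 0.543 for TH-. Taking 3 counts in the TH- pool as the most that a 0 allows, an undetected model could stand at up to 0.119 CPM there, CPM being the count relative to the library total. On the TMM scale this limit was higher. It covers counting error only, and no molecular identifiers were described. The intervals for shares treat models as independent draws, and the interval for the median length is taken over members. None of them covers the spread between libraries or animals.

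The members were mostly scarce transcripts in TH+ cells. Their counts ran from 10 to 572 with a median of 24 in TH+ library 1, from 10 to 567 with a median of 22 in library 2, and from 10 to 600 with a median of 21 in library 3. By mean TPM over the 3 libraries the lowest member stood at 0.418, the median member at 5.04 and the highest at 125. Other models under 10000 bases with at least 10 counts in each TH+ library are set beside this. Their median was 4.86 TPM for models read in 1 TH- library, 4.74 in 2 and 14.5 in all 3. The low level is therefore not particular to the members. There were 116 members at 5 TPM or more, 24 at 20 TPM or more and 5 at 50 TPM or more. The set as a whole took 7185, 6862 and 6544 counts in the TH+ libraries, a share of 0.0989% ± 0.00478 of the counts and 0.210% ± 0.0103 of the TPM (SD, n = 3). In the TH- libraries its share is 0 by the rule.

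**Figure D1:**
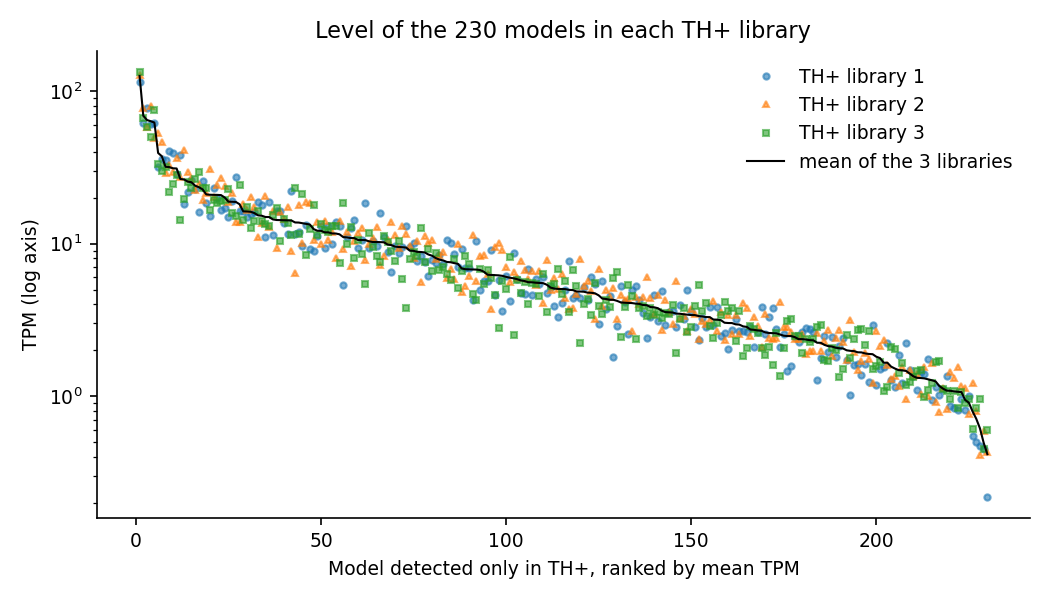
TPM of each of the 230 models in the 3 TH+ libraries (points, log axis) against the model's rank by mean TPM (line). By mean TPM a single model lies above 100 TPM and 5 lie above 50 TPM.

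One model stood far above the other members. PMZ_0063747-RA, 891 bases long, was read 572, 567 and 600 times in TH+, against 0 reads in every TH- library. Its level was 115, 127 and 133 TPM, or 125 ± 9.11 TPM in TH+ (SD, n = 3), and it alone held 8.46% ± 0.629 of the members' counts. The next member by counts, of 1562 bases, had 140, 140 and 147, below the first model in each TH+ library. The estimated counts of PMZ_0063747-RA before rounding were 571.61, 567.09 and 599.78 in TH+ and exactly 0 in each TH- library. Values that are not whole show that some reads were divided between this model and a similar one, and the size of the divided part is not known.

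PMZ_0027421-RA, of 291 bases, was the highest member whose counts were whole in all 6 libraries, so that no division of its reads is visible. Its TH+ counts were 64, 71 and 64, against 0 in every TH- library. Its level was 61.6, 77.6 and 66.7 TPM, or 68.6 ± 8.15 (SD, n = 3), the second highest of the set. The models with ranks 3, 4 and 5 were close behind. A 219-base model had 77.4, 57.7 and 58.0 TPM, a 267-base model had 60.4, 79.9 and 49.5 TPM, and a 347-base model had 61.7, 49.3 and 74.8 TPM. The libraries of these 3 models and of PMZ_0027421-RA overlapped, so their order among themselves is not larger than the spread between libraries. All 3 TH+ libraries of PMZ_0063747-RA lay above all of theirs.

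The order by counts differed from the order by TPM, because the members highest in TPM are short. The 1562-base model, second by counts, stood at 14.9, 16.5 and 17.2 TPM and ranked 30th. A 1095-base model with 94, 107 and 130 counts ranked 25th, with 14.9, 18.8 and 22.7 TPM. The longest member, of 7668 bases, had 11, 19 and 27 counts and the lowest mean level of all, 0.418 TPM. Between these ends, 88 members had at least 20 counts in every TH+ library, 45 had at least 30, 16 had at least 50 and 2 had at least 100.

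Against an undetected TH- level, a fold is a lower bound. Taken over 3 counts in the pooled TH- libraries and on library totals, the bound had a median of 26.9-fold over the 230 members, with a lowest value of 12.5 and a highest of 704. It was at least 50-fold for 34 members and at least 100-fold for 4. On TMM-scaled totals, which give TH+ libraries a mean factor of 1.85 and TH- libraries one of 0.543, the median bound was 7.90-fold and the range 3.68 to 207. On that scale 18 members reached 20-fold and 2 reached 50-fold. PMZ_0063747-RA was at least 704-fold higher in TH+ on library totals and at least 207-fold higher on the TMM scale. PMZ_0027421-RA was at least 80.7-fold and at least 23.7-fold higher on these scales. For the 51 members whose counts were not whole, PMZ_0063747-RA among them, the bound holds for the estimated counts only. Shared TH- reads may have been assigned to a similar model, and this was not tested.

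Across the 230 members, TPM in one TH+ library had a rank correlation of 0.910 to 0.920 with TPM in another, and counts had one of 0.633 to 0.667. These are descriptions across models, which share length and library. Length enters both sides in TPM, and its part in the higher correlation there was not tested. Between 204 and 210 of the members lay within 2-fold of each other in a pair of libraries. The coefficient of variation of CPM over the 3 libraries had a median of 22.5% and a highest value of 64.2%. The rule asked for at least 10 counts in every TH+ library, which leaves out models that were low in any of them. The agreement between TH+ libraries is therefore shaped by the choice of members.

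A chi-square value divided by its degrees of freedom compares the spread of TH+ libraries with counting error, for which it is 1. It was 2.13 for the 142 members with a lowest count of 10 to 19. The value was 2.46 for the 1395 models in the same range of lowest TH+ count that also had TH- counts. At a lowest count of 20 to 49 the values were 2.02 for 72 members and 2.55 for 1979 such models. At 50 to 99 they were 2.10 for 14 members and 2.82 for 1599 such models. All these values were above 1, for members and for the other models. Within these ranges the other models had higher median counts, 19.7 against 18.2, 40 against 33.8 and 83.3 against 68. The values are therefore not at equal counts, and the part of count in their difference was not tested. The largest spread in TPM belonged to a 480-base model with whole counts, whose 3 libraries differed by up to 3.60-fold. Its counts were 26, 13 and 48 in the TH+ libraries, while a 1626-base member had 11, 10 and 10. The highest CPM of a member fell in TH+ library 1 for 59 members, in library 2 for 103 and in library 3 for 68. Library 2 had the smallest total of the TH+ libraries and the largest TMM factor, 1.88 against 1.83 and 1.83. The same numbers over all models are not given here, so these are not read as a trait of the members.

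The edge of the set is not a gap in the data. Among the 11242 models with at least 10 counts in each TH+ library and under 10000 bases, 230 had 0 counts over the pooled TH- libraries, 195 had 1, 213 had 2 and 210 had 3. The numbers declined slowly from there, to 141 models with 10 TH- counts and 76 with 20. Among summed TH- counts of 0 to 20, a count of 0 was thus the most frequent, by a small margin over its neighbours. At the other limit, 28 members had a lowest TH+ count of exactly 10 and 19 had one of 11, while 28 further models with no TH- count had a lowest TH+ count of 9 and 35 had one of 8.

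**Figure D2:**
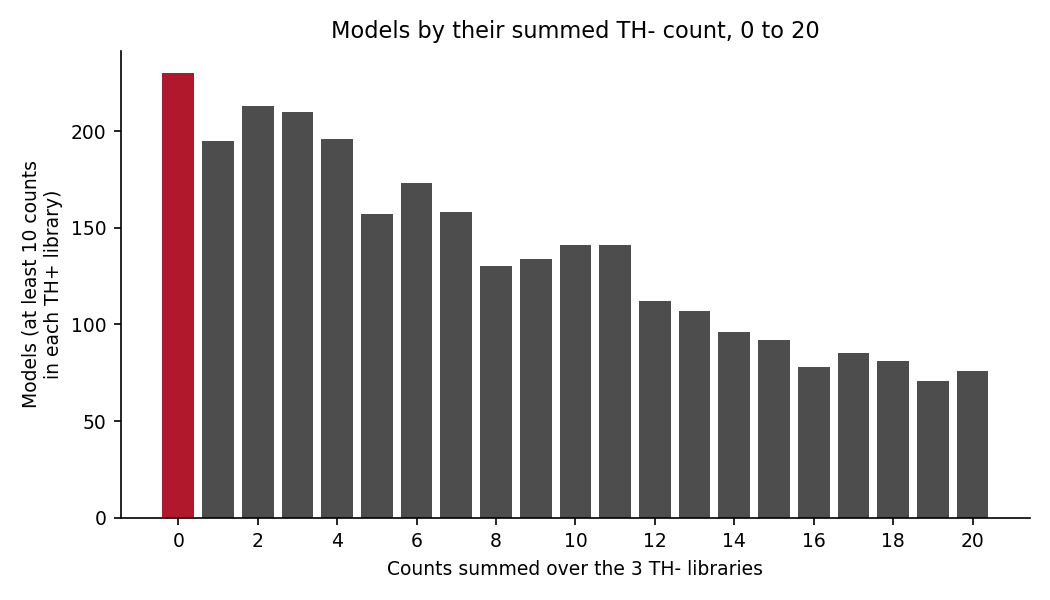
Number of models with at least 10 counts in each TH+ library, by the counts summed over the 3 TH- libraries. The bar at 0 (230 models, red) is followed by bars of 195, 213 and 210 models at 1, 2 and 3 counts, with no gap between.

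Several models just outside the set had more TH+ counts than nearly all members. A 3088-base model was read 403, 372 and 357 times in TH+, against 0, 1 and 1 times in TH-. A 2013-base model had 315, 320 and 314 in TH+ and 1, 0 and 0 in TH-. A 498-base model had 283, 314 and 347 in TH+ and 1, 0 and 0 in TH-, with counts that were not whole. Each of these has TH+ counts above those of every member but PMZ_0063747-RA, and is kept out by 1 or 2 TH- counts. In mean TPM the order differed. The 498-base model stood at 142, above PMZ_0063747-RA at 125, while the 3088-base and 2013-base models stood at 20.7 and 27.4.

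The share of models at 0 in TH- was lower at higher TH+ counts. At a fixed ratio of TH+ to TH-, fewer TH+ counts go with fewer TH- counts. The part of counting in these shares was not tested. Of the models with a lowest TH+ count of 10 to 14, 11.2% were at 0 in TH- (98 of 876, exact 95% interval 9.18 to 13.5). That share was 6.66% at 15 to 19 counts, 4.78% at 20 to 29, 2.52% at 30 to 49 and 0.868% at 50 to 99 (14 of 1613, interval 0.475 to 1.45). Above 100 counts the set has 2 models, 1 of the 1630 at 100 to 199 and 1 of the 2218 at 500 or more. None of the 2193 models at 200 to 499 was at 0, which allows a share of up to 0.168% by the upper end of the exact interval. The 4411 models with at least 200 counts in each TH+ library included 1 with no TH- count, PMZ_0063747-RA, and 15 with 1 to 10 TH- counts. In TPM, members made up 3.80% of the 2001 models at 2 to 5 TPM, 1.92% of the 2235 at 10 to 20 TPM, and 1 of the 996 at 100 TPM or more.

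**Figure D3:**
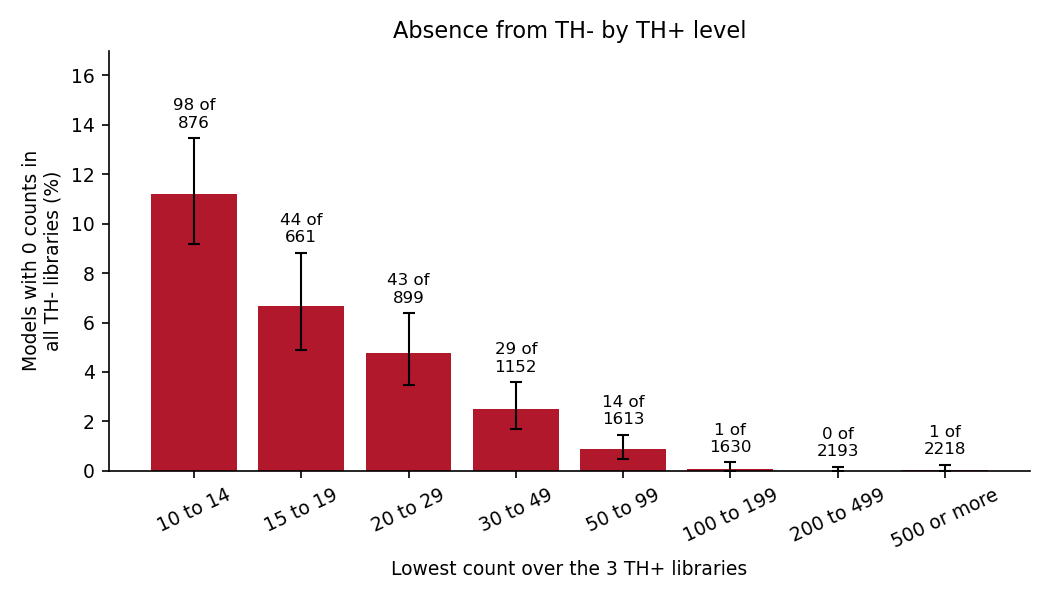
Percent of models with 0 counts in all TH- libraries, by the lowest count over the TH+ libraries, with exact 95% binomial intervals and the numbers of models. The share is 11.2% at 10 to 14 counts and 0.868% at 50 to 99 counts, and is close to 0 above that.

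The number of absent models also moved with how many TH- libraries were read. Of the 11242 models, 882, 703 and 929 had no count in TH- library 1, 2 and 3 taken alone. For pairs of TH- libraries the numbers were 353 to 450, and for all 3 together 230. By library totals the deepest TH- library, number 2, had the fewest models at 0, and the shallowest, number 3, had the most. On TMM-scaled totals library 1 was the deepest, so the numbers at 0 did not follow depth in full on that scale. Where a single TH- library held all the TH- counts of a model, it was library 1 for 155 models, library 2 for 220 and library 3 for 123, with a median of 2 counts in each case. In the reverse direction, 7245 models under 10000 bases had at least 10 counts in each TH- library. Of these, 6, 8 and 6 had no count in TH+ library 1, 2 and 3 taken alone, and 1 had none in all 3 together. The TH+ libraries were the deeper group on TMM-scaled totals, and the part of depth in this difference was not tested.

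A reading in libraries that did not choose the models came from leaving out one replicate number at a time. The left-out libraries may be technical replicates of the others, since the labels do not tie them to animals or sorts. The 3 chosen sets also overlap, since each holds all 230 members. For those members the left-out values are fixed by the full rule, at 0 in TH- and at least 10 in TH+. The reading thus describes the sets chosen without the left-out libraries and adds nothing on the members themselves. The rule was applied to the 2 remaining TH+ and the 2 remaining TH- libraries, and the chosen models were read in the pair left out. With number 1 left out 447 models were chosen, of which 86.1% (385, exact 95% interval 82.6 to 89.2) had at least 10 counts in TH+ library 1 and 60.9% (272, interval 56.2 to 65.4) had 0 in TH- library 1. With number 2 left out 516 were chosen, and 87.2% had at least 10 counts in TH+ library 2 while 53.3% (interval 48.9 to 57.7) had 0 in TH- library 2. With number 3 left out 422 were chosen, and 83.6% had at least 10 counts in TH+ library 3 while 66.1% (interval 61.4 to 70.6) had 0 in TH- library 3. Beside this, 8.56%, 6.96% and 9.20% of all models under 10000 bases with at least 10 counts in the 2 remaining TH+ libraries were at 0 in TH- library 1, 2 and 3.

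The direction held in the left-out libraries for nearly every chosen model, while complete absence did so for 53.3% to 66.1% of them. CPM was higher in the left-out TH+ library than in the left-out TH- library for 446 of 447, 513 of 516 and 420 of 422 models, and on the TMM scale for 435, 501 and 406 of them. Most models go this way on library totals: of all models with at least 10 counts in the 2 remaining TH+ libraries, 84.4%, 88.4% and 86.8% had the higher CPM in the left-out TH+ library, and on the TMM scale 58.4%, 57.1% and 57.6% did. The summed counts of the chosen models were 13694 in TH+ library 1 against 432 in TH- library 1. They were 15444 in TH+ library 2 against 681 in TH- library 2, and 11543 in TH+ library 3 against 303 in TH- library 3. On library totals the summed level was 37.5, 31.8 and 40.2 times higher in TH+, and on the TMM scale 12.2, 8.44 and 11.8 times. Most of the models that were no longer at 0 had few TH- counts, with 148, 181 and 126 of them at 1 to 3. With 1 left-out library per group these values have no replicate test.

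**Figure D4:**
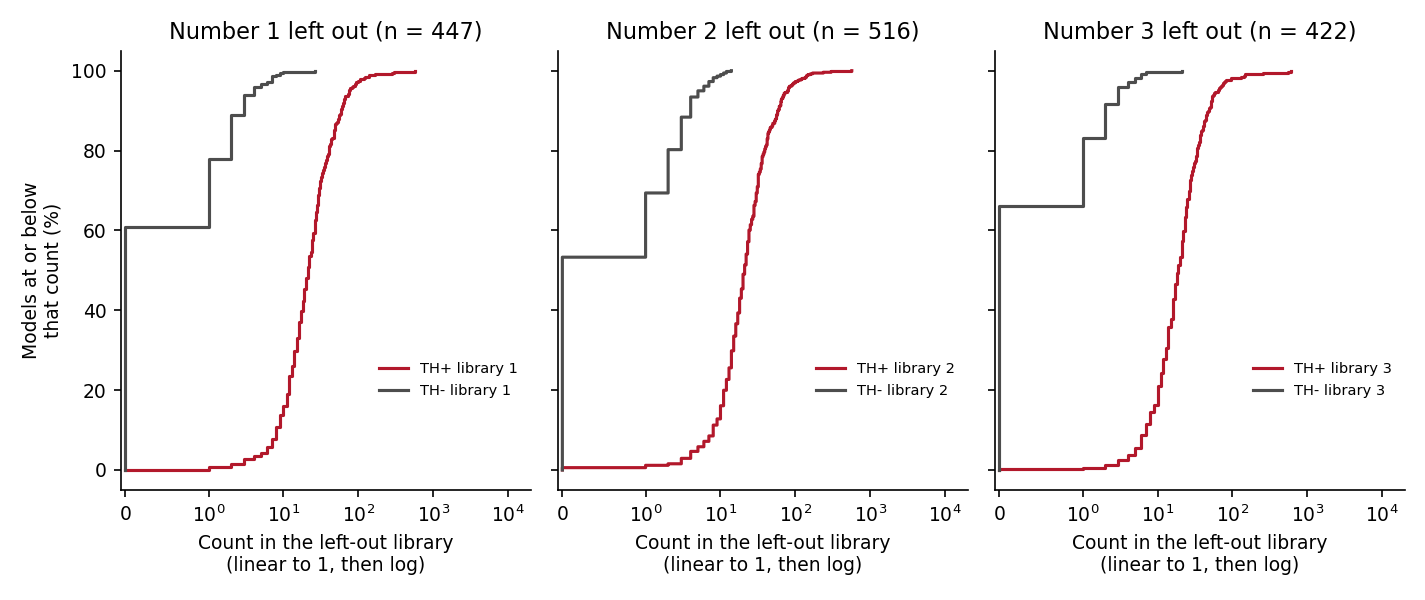
Cumulative percent of models by their count in the left-out TH+ (red) and TH- (grey) library, for models chosen by the rule in the other 4 libraries; the count axis is linear to 1 and logarithmic above. Between 53.3% and 66.1% of the models start at 0 in the left-out TH- library, and the TH+ curves lie far to the right.

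The members were short models. Their median length was 884 bases (quartiles 498 and 1614, range 219 to 7668), against 2220 for the 11012 models with at least 10 counts in each TH+ library and some TH- counts, and 1398 for all 19781 models. By the number of TH- libraries in which a model was read, the median was 884 bases at 0 libraries, 1121 at 1, 1227 at 2 and 2412 at 3. Of the models under 500 bases that reached 10 counts in each TH+ library 8.49% were members, against 4.39% at 500 to 1000 bases, 2.30% at 1000 to 2000 and 0.604% above that. TH+ level and length go together in these counts, since longer models collect more reads. Within ranges of lowest TH+ count from 10 to 99 the members were still the shorter models. The medians for members and for the others were 818 and 1214 bases at 10 to 14, and 1016 and 1323 at 15 to 19. They were 928 and 1384 at 20 to 29, 982 and 1638 at 30 to 49, and 1127 and 2034 at 50 to 99. Counts were not matched within a range. No test was made across models.

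**Figure D5:**
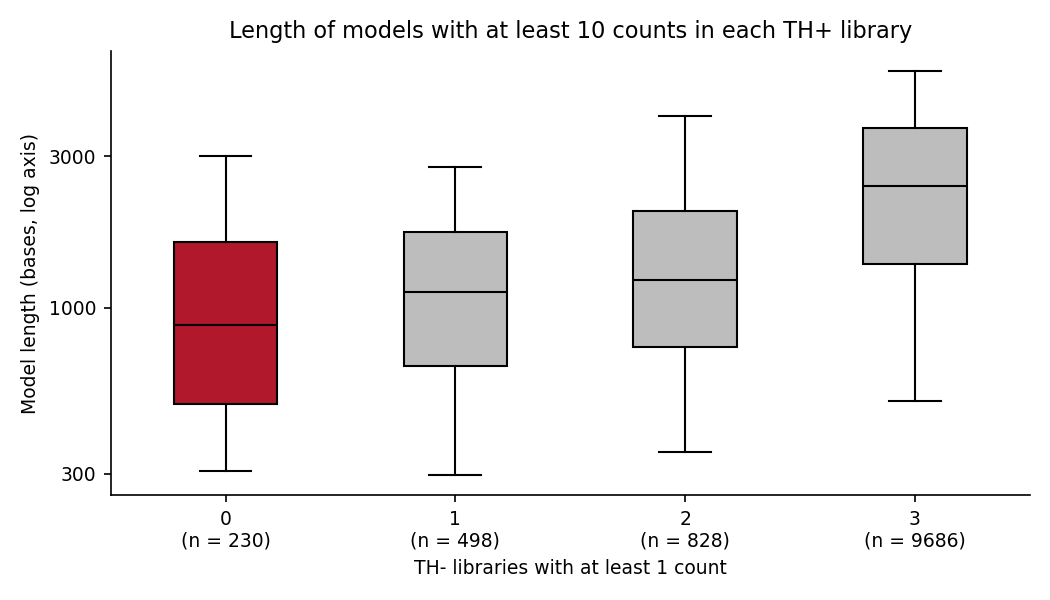
Length of models with at least 10 counts in each TH+ library, by the number of TH- libraries with at least 1 count. Boxes give the median and quartiles and whiskers the 5th and 95th percentiles on a log axis; the median is 884 bases for the 230 models at 0 (red) and 2412 for the 9686 models read in all 3.

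By length, 60 members were under 500 bases, 66 had 500 to 1000, 67 had 1000 to 2000 and 37 had 2000 or more. Their median counts were alike, at 20.5, 23.0, 22.3 and 20.3. Their median TPM was 14.2, 6.21, 2.87 and 1.41 in the same order, lower in each longer class. The difference between a member's length and its effective length, which kallisto derives from fragment length, had a median of 140 bases in TH+ and 103 bases in TH-. The shortest members therefore offered fewer starting positions for a TH+ fragment than for a TH- fragment. The part of fragment length in the members' absence from TH- was not tested.

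Lengths that are multiples of 3 were found for 157 of the 230 members, or 68.3%, against 49.5% of the models with TH- counts and 62.3% of all models. A model that consists of coding sequence alone has such a length. Among models read in 1, 2 and 3 TH- libraries the percentages were 71.1, 67.0 and 46.9. The members' percentage lay between those of the models read in 1 and in 2 TH- libraries.

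Estimated counts were whole in all 6 libraries for 179 members, or 77.8%, against 61.8% of the models with TH- counts and 70.9% of all models. The percentages were 76.7 and 73.8 for the models read in 1 and in 2 TH- libraries, next to 77.8 for the members. A TH- estimate of 0 is whole, so for nearly all members only the 3 TH+ libraries could give a fractional count. Models with TH- counts could have one in TH- libraries as well. The rule thus favours whole counts among members, and the percentages do not compare like with like. The 51 members with fractional counts held 30.3% of the members' TH+ counts, and PMZ_0063747-RA is one of them. There were 5 members whose estimated count was above 0 in a TH- library and became 0 on rounding, and in 3 of these it was above 0.01. The highest such estimate was 0.5, in a 453-base model with 73, 53 and 60 TH+ counts that ranked 8th in TPM. It would have been left out had 0.5 been rounded up.

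A pair of 501-base members had TH- estimates of the same size, 0.0261 in TH- library 1 and 0 in the other two. Their TH+ estimates were 90.7, 58.2 and 31.4 for the one ranked 12th in TPM, and 31.3, 29.9 and 16.3 for the one ranked 55th. Neither had whole counts, so part of their reads was divided with similar models, and the separate level of each is uncertain. Whether they share reads with each other was not tested. TH+ library 3 was the lowest of the 3 for both.

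In the comparison of TH+ with TH- over the whole table, 222 of the 230 members passed the low-count filter and all 222 were called higher in TH+ (edgeR, quasi-likelihood, adjusted by Benjamini-Hochberg over 11502 models). Over all models tested, 42.8% were called higher and 32.9% lower, or 4927 and 3789 models. Scaling by library totals alone moved this to 8989 higher and 1028 lower, and all 222 members were higher there too. The rule used the same counts, and the members that passed did so through TH+ alone, so nothing is read from this count. The other 8 members did not pass the filter.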

How the data were processed

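RNA of 3 TH+ and 3 TH- pools was sequenced; per the labels' protocols, RNA was recovered after crosslink reversal, turned into cDNA by SMART-Seq v4 chemistry for small inputs and made into NEBNext Ultra II libraries. The deposited estimated counts and TPM values have kallisto's columns, and the submitters' processing notes name kallisto and DESeq2. In estimated counts, reads that match several models are divided between them. TPM is corrected by the authors' kallisto run for effective length and depth. The sources used here do not name the transcript set, the genome build or any filter on reads.

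Samples were grouped by title. Estimated counts were rounded to whole numbers (0.5 to the even number) and the rule was applied; counts within 1e-06 of a whole number were called whole. CPM is per library total. Fold bounds divide the mean TH+ CPM by the level of 3 counts over the pooled TH- libraries. Intervals for shares are exact (Clopper-Pearson, 95%, SciPy 1.17.1). The whole table was tested with edgeR 4.0.16 in R 4.3.3 (filterByExpr, minimum count 10, minimum total 15, TMM, quasi-likelihood, Benjamini-Hochberg at 0.05, no covariate). The same fit was run on simulated data whose changes were balanced up and down. That run does not cover the difference in library composition between TH+ and TH-. DESeq2 1.42.0 was an alternative. Others were different scalings, filters and count minimums, whole counts, no rounding, thinning, a replicate block and leaving out each library.

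The rule for named models took the member highest in mean TH+ TPM and the highest of those with whole counts. The members and choices were made with earlier results of these data known. The edgeR test covers the counts that chose the members, so its calls on them are given as a description and support nothing.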

Additional observations from a re-analysis of the deposited data

How the results depend on the processing

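The size of the set depended on its count limits and on which TH- libraries were read. From 230 models it moved to 474 with a minimum of 5 counts, 88 with a minimum of 20 and 563 with a minimum of 1 TPM in place of 10 counts. Leaving out 1 library gave 272 to 450 models, with 385, 450 and 353 when TH- library 1, 2 or 3 was left out. Leaving out a library changes depth and the number of libraries together. Thinning every library to the smallest total gave 277, which makes library totals equal but not TMM-scaled totals. The share at 0 in TH-, 2.05%, was 3.77%, 0.907%, 2.56% and 2.49% with a minimum of 5, a minimum of 20, whole counts and libraries thinned to the smallest total, and 2.37 to 4.003% with a library left out. The set's share of TH+ counts, 0.0989%, was 0.136%, 0.0615%, 0.0690% and 0.125% under these settings, 0.106 to 0.218% with a library left out, and 0.210% in TPM. The median bound of 26.9-fold was 16.6 and 45.4 with a minimum of 5 and 20 counts, and 22.0 after thinning. It was 17.8 to 25.3 with a library left out and 7.90 on TMM-scaled totals. With 3 counts in the TH- library of largest total it was 9.82. These bounds scale with the minimum and the depth by construction. The median length stayed within its interval of 777 to 1017 bases under all 11 alternatives run for it.

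Library totals alone in edgeR called 8989 models higher and 1028 lower, against 4927 and 3789 with TMM; the other 10 alternatives stayed within 1.5 times. All members tested were called higher in each. The rule chose members by the same counts, so nothing is read from the calls on them under any setting. Deviations of same-numbered TH+ and TH- libraries had correlations of 0.00927, 0.0242 and 0.00045. Those of differently numbered libraries ran from -0.0293 to 0.0201. Whether same-numbered libraries share an animal or a sort was not tested. With a replicate block 4530 models were called higher, 3618 lower, and 222 of 222 members tested were higher. For models at 0 in TH-, the pooled depth allows a level of up to 0.119 CPM on library totals, and a higher one on the TMM scale.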
